A study of Mus musculus with 6 samples.

Results

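Neurotrophins are secreted proteins that keep neurons alive and shape their outgrowth, and 7 genes of this system were followed by symbol among the 32285 genes of the count tables. Mature neurotrophins act through the Trk tyrosine kinase receptors, of which *Ntrk2* encodes TrkB, the receptor of BDNF and NT-4/5, and *Ntrk3* encodes TrkC, the preferred receptor of NT-3. *Ngfr* encodes p75NTR, a receptor shared by the neurotrophins that can pair with Trk proteins. *Sort1* encodes sortilin, a sorting receptor that joins p75NTR to bind uncleaved proneurotrophins. *Bdnf*, *Ntf3* and *Ntf5* encode the ligands BDNF, NT-3 and NT-4/5. In autonomic ganglia the receptors are known from neurons and from the glia around them, and ligands are known to reach neurons from innervated tissue, including blood vessels.

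Cells came from ganglia of postnatal day 5 pups of both sexes that carried a Cre transgene and the RosatdT reporter, in which Cre switches on the fluorescent protein tdTomato. All 6 libraries carried both alleles, none was treated, and whole ganglia were dissociated from pooled pups, whose number is not given in the sources used here. Round 1 held 1 library each of the stellate (sympathetic), sphenopalatine (parasympathetic) and pelvic ganglia (called pelvic_1), and round 2 held 1 library each of the coeliac and lumbar sympathetic ganglia and a second pelvic library (pelvic_2). Ganglia other than the pelvic one therefore had no replicate, and no test was made between ganglia.

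The 6 libraries held 39353313 to 113352559 UMIs (counted molecules), and 21442 cells passed the filter. Clusters were named from marker genes and are therefore neuron-like, glia-like and so on, written below without the suffix. They comprised 6351 neurons, 8076 glia, 3231 fibroblasts, 724 endothelial cells and 614 mural cells (the contractile cells of vessel walls), with 563 macrophages kept as a background type. Another 1361 cells (6.35%) stayed unnamed. No cluster of the parasympathetic sphenopalatine library was noradrenergic, and no coeliac cluster was cholinergic. Pelvic neurons fell into the types P1 to P4, by markers that the study had chosen on these same samples. Levels are given on the usual CPM scale, the UMIs of a gene over all UMIs of that class in that library. Brackets give exact Poisson 95% intervals, which cover counting error only. Classes were compared over libraries with edgeR's quasi-likelihood test on counts summed per library and class. Library was a term, and Benjamini-Hochberg adjustment ran over 14308 genes. Each class was set against the mean of the 4 other classes on the log scale, macrophages not included. A class with almost none of a gene lowers that mean strongly, so these folds are not folds over an average CPM. Neuron-only control genes were also counted in glia in every library, and whether free RNA or unmarked doublets brought them there was not tested. They stood in glia at 2.47% of their neuronal level in the lumbar library and up to 17.2% in the stellate library. Libraries of round 1 shared 20 to 49 cell barcodes with each other, and other pairs shared 0 to 4. How many chance alone would give was not computed.

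Each cell class carried its own set of these genes. By median level neurons had the highest *Ngfr*, glia the highest *Ntrk2* and *Sort1*, and mural cells the highest *Ntf3* and *Bdnf*. Fibroblasts carried *Ntrk2*, *Ntrk3* and *Ngfr* together. Against the other classes, 5 of the 6 members that passed the filter on low counts differed in neurons (3 higher, 2 lower), where 80.3% of all genes tested were called (44.2% higher, 36.1% lower). In glia 4 differed (3 higher, 1 lower), where 56.8% of all genes were called (28.8% higher, 28.0% lower). In fibroblasts 5 differed (3 higher, 2 lower), with 56.7% of genes called (28.8% higher, 27.9% lower). In endothelial cells all 6 differed (1 higher, 5 lower), with 63.6% of genes called (31.5% higher, 32.1% lower). In mural cells 4 differed (3 higher, 1 lower), with 39.5% of genes called (16.5% higher, 23.0% lower). Most genes separate cell classes, so these counts are read against that background. The median log2 change of the 6 members was 0.50 in neurons (0.12 over all genes tested) and -2.38 in endothelial cells (-0.04 over all genes). *Ntf5* was under the filter in every comparison.

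**Figure D1:**
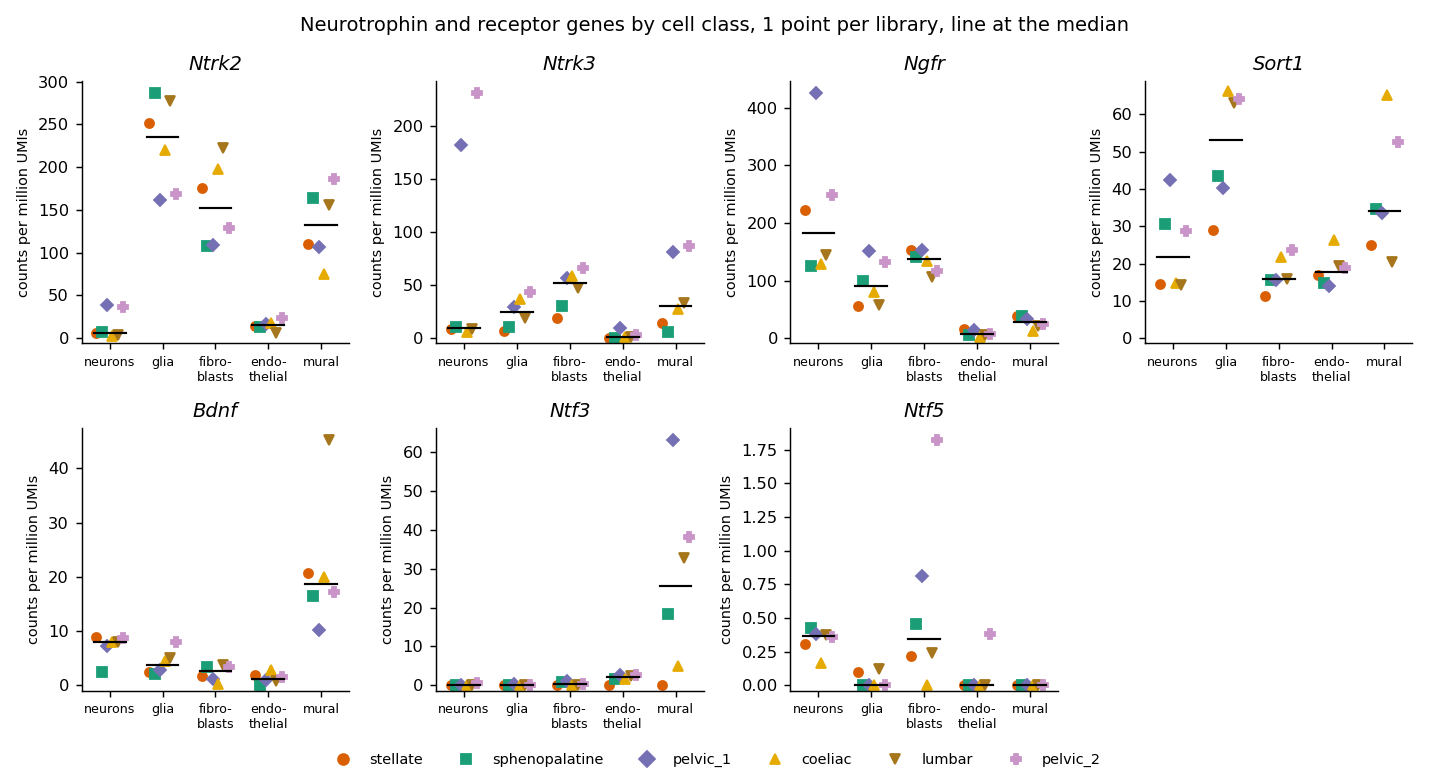
Level of each of the 7 genes (CPM, linear axes) in 5 cell classes, with 1 point per library and a line at the median of the 6 libraries. *Ntrk2* is highest in glia and lowest in neurons and endothelial cells, *Ntrk3* in neurons is split between the pelvic libraries and the rest, and *Ntf3* stands out in mural cells.

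*Ntrk2*, the TrkB gene (chr13:58806569-59133970, GRCm38, plus strand), was above all a gene of glia, fibroblasts and mural cells. In glia its level was 161 CPM in pelvic_1, 168 in pelvic_2, 220 in the coeliac, 252 in the stellate, 277 in the lumbar and 286 in the sphenopalatine library. In neurons it was 2.13 CPM in the coeliac, 4.27 in the lumbar, 6.01 in the stellate and 7.36 in the sphenopalatine library, against 36.6 and 38.4 in pelvic_2 and pelvic_1. Every glial sum lay above every neuronal sum. *Ntrk2* was 15.1-fold lower in neurons than in glia (log2 change -3.92 ± 0.522 SE, edgeR adjusted p = 2.5e-07). That comparison called 75.6% of all genes (41.7% higher and 33.9% lower in neurons) and 4 of the 6 members (2 higher, 2 lower). Against the mean of the other classes glia were 4.82-fold higher (log2 change 2.27 ± 0.334, edgeR adjusted p = 2.55e-06). Fibroblasts were 3.52-fold higher (1.82 ± 0.345, edgeR adjusted p = 8.29e-05).

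The order of *Ntrk2* by median level ran from glia (236 CPM) through fibroblasts (152) and mural cells (133) to endothelial cells (15.4) and neurons (6.68). The ranges of glia and fibroblasts (108 to 222 CPM) overlapped, as did those of fibroblasts and mural cells (75.1 to 186 CPM), and those of endothelial cells (5.61 to 23.3 CPM) and neurons. Mural cells passed the test at 1.15 ± 0.393 (log2, edgeR adjusted p = 0.0224), a call lost without the sphenopalatine library (1.06), within either round (1.23 and 1.21) and with at least 50 cells per sum (1.14). Neuron-only genes stood at most at 17.2% of their neuronal level in glia, whereas *Ntrk2* in glia was over its neuronal level in every library. The counts are read from the 3′ end of transcripts per gene, so that full-length TrkB and its truncated form without kinase, both known products of this gene, were not told apart.

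Within neurons, *Ntrk2* was highest in a few cholinergic types. In both pelvic libraries the P4 neurons, a cholinergic type led by *Aldh1a2* and *Calca*, had the highest level, 204 CPM [186, 224] in pelvic_1 and 185 CPM [168, 203] in pelvic_2. P2 neurons followed with 45.7 and 43.5 CPM. P1 neurons had 14.2 and 20.0 CPM, and the noradrenergic P3 neurons had 10.5 and 11.8 CPM. The order P4, P2, P1, P3 was the same in both libraries, with a mean of 195 ± 13.9 CPM (SD, n = 2) in P4 and 44.6 ± 1.51 in P2. The 56 and 24 P4 cells held 39.3% and 35.8% of all neuronal *Ntrk2* UMIs of their libraries. Outside the pelvis the shares varied. The lumbar cholinergic cluster (45 cells, led by *Sst*, *Vip* and *Calca*) had 57.8 CPM [50.3, 66.0] and held 73.3% of the lumbar neuronal UMIs of *Ntrk2*. The 31 stellate neurons of a cluster led by *Vip* and *Grp* had 64.5 CPM [51.3, 80.0] and held 18.4% of the stellate neuronal UMIs. In the coeliac library, at 4.05 CPM, a noradrenergic cluster held 84.6%.

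Across the 4 libraries with both transmitter types, cholinergic neurons exceeded noradrenergic neurons in *Ntrk2* each time, at 35.9 against 4.95 CPM in the stellate, 57.8 against 1.21 in the lumbar, 43.9 against 10.5 in pelvic_1 and 39.7 against 11.8 in pelvic_2. Of the 60 stellate cholinergic neurons, the cluster of 31 cells at 64.5 CPM held most of the *Ntrk2* UMIs. The other 29 cells lay closer to the noradrenergic level. The difference of noradrenergic from cholinergic neurons was -3.01 ± 0.648 (log2, 4 libraries), which missed the threshold (edgeR adjusted p = 0.0509, unadjusted p = 0.00321). It passed by DESeq2 (-2.96), with no filter on low counts (-2.99), with likely doublets removed (-3.07), without the lumbar library (-2.24) and without both pelvic libraries (-4.12), the latter an alternative chosen after seeing the data. Here 1 of the 5 members tested was called (*Sort1*, below), where 6.12% of all genes were called (2.62% higher, 3.5% lower). The sphenopalatine neurons, nearly all cholinergic, were an exception in level, with 7.36 CPM over all neurons and no more than 15.3 CPM [12.7, 18.2] in any cluster.

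**Figure D2:**
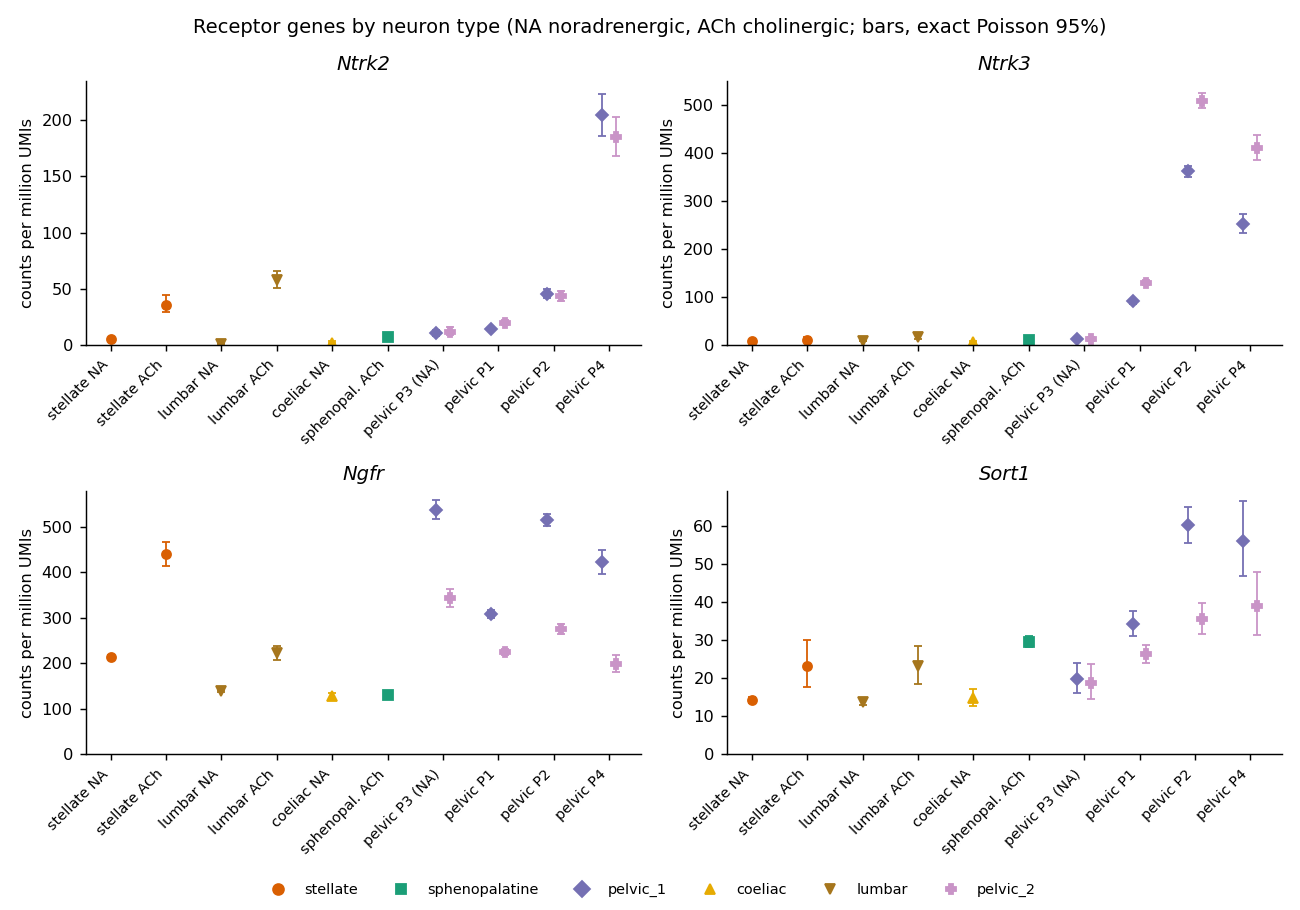
Levels of the 4 receptor genes (CPM, linear axes) in noradrenergic (NA) and cholinergic (ACh) neurons of each ganglion and in the pelvic types, 1 point per library with exact Poisson 95% intervals. *Ntrk2* peaks in P4, *Ntrk3* in P2 and P4, and *Ntrk3* in P3 (12.6 and 12.0 CPM) is near the sympathetic levels.

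*Ntrk3*, the TrkC gene (chr7:78175959-78738012, GRCm38, minus strand), marked pelvic neurons. Its neuronal level was 182 CPM [178, 187] in pelvic_1 and 231 CPM [225, 236] in pelvic_2. Elsewhere it was 6.38 CPM in the coeliac, 8.94 in the lumbar, 9.12 in the stellate and 11.03 in the sphenopalatine library. The 2 pelvic libraries thus lay far above the other 4, whose range spanned less than 5 CPM. Within round 1 the pelvic level was 20.0-fold the stellate and 16.5-fold the sphenopalatine level. Within round 2 it was 36.1-fold the coeliac and 25.8-fold the lumbar level. A UMI of *Ntrk3* was found in 77.3% (Wilson 95% interval 74.2 to 80.2) and 80.7% (76.0 to 84.6) of pelvic neurons, and in 43.9% and 47.5% once each cell was thinned to 4000 UMIs. In the other ganglia the share was 7.77% to 17.6%, and 2.02% to 3.85% after thinning. Macrophages of the pelvic libraries, a type taken as background, held a UMI of it in 12.8% and 10.4% of cells, at median depths of 7577 and 17369 UMIs against 39961 and 108441.5 UMIs in the neurons.

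The pelvic level of *Ntrk3* was carried by the cholinergic types. P2 neurons had 361 and 508 CPM (pelvic_1 and pelvic_2), P4 neurons 252 and 410 CPM, and P1 neurons 91.3 and 130 CPM. P3 neurons, the noradrenergic type, had 12.6 and 12.0 CPM, which was 1.39-fold the stellate noradrenergic level in round 1, and 1.88-fold the coeliac and 1.42-fold the lumbar one in round 2. P2 exceeded P3 by 28.7-fold and 42.3-fold. Cholinergic neurons elsewhere did not share this level, with 11.1 CPM in the stellate and 17.3 CPM in the lumbar library. The noradrenergic against cholinergic difference, -2.52 ± 0.834 (log2), missed the threshold (edgeR adjusted p = 0.14) and was called by DESeq2 (-2.47) and with no filter on low counts (-2.51). Single clusters outside the pelvis reached at most 57.8 CPM [51.3, 65.1], in sphenopalatine neurons led by *Gpr50* and *Penk*.

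Because of this split, the class tests of *Ntrk3* in neurons turned on the pelvic libraries. Neurons were 2.54-fold higher than the other classes (log2 change 1.34 ± 0.394, edgeR adjusted p = 0.0033). The call was lost without pelvic_2 (0.75) and within round 2 (1.15), and the value fell to 0.26 without both pelvic libraries, an alternative chosen after seeing the data. Against glia the difference was 0.95 ± 0.508 (edgeR adjusted p = 0.0941), which was called without the coeliac library (1.51), within round 1 (1.35) and with no library term (1.87), and turned to -0.38 without both pelvic libraries. Fibroblasts were the steadier class, at 19.6 to 66.1 CPM and 3.48-fold above the others (1.80 ± 0.412, edgeR adjusted p = 0.000638), a call lost with no library term (1.12). By median the order was fibroblasts (51.8 CPM), mural cells (30.2), glia (24.3), neurons (10.1) and endothelial cells (1.64). All neighbours in this order overlapped in range, endothelial cells (0 to 9.56 CPM) included. Endothelial cells were 16.0-fold lower than the mean of the other classes (-4.00 ± 0.672, edgeR adjusted p = 1.5e-05).

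Among fibroblasts, *Ntrk3* was uneven. Perineurial cells, which form the sheath around nerve bundles, had 116 CPM against 3.86 in the other fibroblasts of the lumbar library and 52.6 against 7.50 in the stellate library. The contrast was smaller in the sphenopalatine library (35.7 against 21.0 CPM) and the levels were nearly equal in pelvic_2 (68.6 against 65.2 CPM). *Ntrk2* ran the other way in the first 3 of these libraries, with 127 against 281 CPM in the lumbar, 73.1 against 213 in the stellate and 73.6 against 166 in the sphenopalatine library, and 133 against 127 CPM in pelvic_2. These values are given without a test. On the same strand *Gm44607* and *Gm39038* overlap *Ntrk3*, and *C630044B11Rik* overlaps *Ntrk2*, so the counting of reads from shared stretches could be affected.

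Kinds of glia differed in their Trk receptor genes. Myelinating Schwann cells, the glia that wrap axons in myelin, were compared with the other glia in 5 libraries, and 3 of the 4 members tested differed (2 higher, 1 lower), where 13.1% of all genes were called (5.8% higher, 7.28% lower). *Ntrk2* was lower in the Schwann cells in each library, at 116 against 264 CPM in the stellate, 122 against 312 in the sphenopalatine, 52.2 against 167 in pelvic_1, 143 against 223 in the coeliac and 117 against 300 in the lumbar library (log2 change -1.15 ± 0.127, edgeR adjusted p = 4.55e-05). *Ntrk3* was higher in 4 of them, at 40.1 against 3.40 CPM in the stellate, 42.5 against 5.59 in the sphenopalatine, 91.1 against 34.5 in the coeliac and 101 against 7.39 in the lumbar library, while pelvic_1 had 23.7 against 29.7 CPM. Over the 5 libraries *Ntrk3* was 5.30-fold higher (2.41 ± 0.424, edgeR adjusted p = 0.00181). The call was lost within round 1 (2.23) and with no library term (1.95). In the lumbar library 103 of the 155 glial UMIs of *Ntrk3* lay in the 112 Schwann cells among 746 glia. These UMIs were 35 of 67 in the stellate, 43 of 79 in the sphenopalatine, 42 of 373 in the coeliac library and 10 of 225 in pelvic_1. In pelvic glia as a whole it stood at 16.1% and 19.0% of the neuronal level, where neuron-only genes stood at 7.13% and 2.85%.

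**Figure D3:**
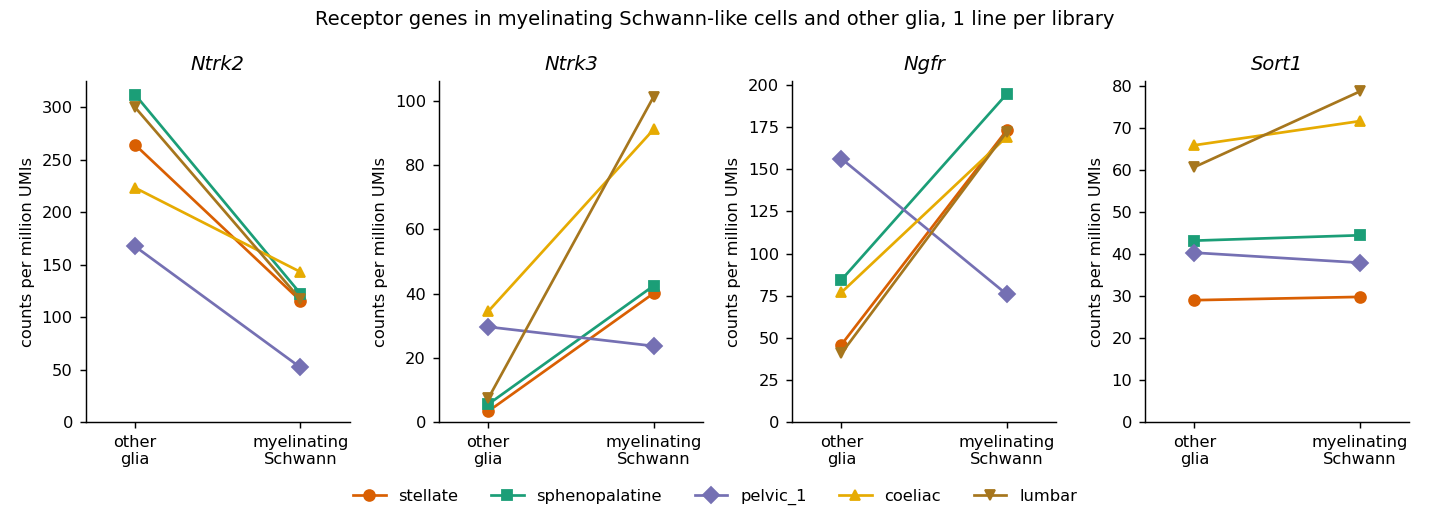
Levels of the receptor genes (CPM, linear axes) in myelinating Schwann cells and the other glia, 1 line per library. Every line falls for *Ntrk2* from the other glia to Schwann cells, and 4 of 5 rise for *Ntrk3* and *Ngfr*, the exception being pelvic_1.

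*Ngfr*, the p75NTR gene (chr11:95568818-95587735, GRCm38, minus strand), was highest in neurons by median level and clearly present in fibroblasts and glia. Its neuronal level was 125 CPM in the sphenopalatine, 129 in the coeliac, 144 in the lumbar, 222 in the stellate, 249 in pelvic_2 and 425 in pelvic_1. Fibroblasts ranged from 107 to 154 CPM (median 137) and glia from 56.7 to 152 CPM (median 90.2), and the neuronal median was 183 CPM. The ranges of these 3 classes overlapped, and fibroblasts exceeded neurons in the sphenopalatine (141 against 125 CPM) and coeliac libraries (133 against 129 CPM). Within each library, however, neurons exceeded glia, and the difference was 2.52-fold (log2 change 1.33 ± 0.229, edgeR adjusted p = 1.13e-05). Against the other classes neurons were 5.46-fold higher (2.45 ± 0.170, edgeR adjusted p = 1.2e-12) and fibroblasts 3.20-fold higher (1.68 ± 0.179, edgeR adjusted p = 1.58e-08).

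Vessel cells held little *Ngfr*. Endothelial cells had 2.23 to 16.5 CPM, 10.6-fold under the mean of the other classes (log2 change -3.41 ± 0.268, edgeR adjusted p = 5.2e-11). That is 1.73% (coeliac) to 7.42% (stellate) of the neuronal level. Neuron-only genes stood in endothelial cells of the coeliac and stellate libraries at 1.61% and 7.79%. In the lumbar library endothelial cells had 5.61 CPM against 144 in neurons, beside 0.979% for neuron-only genes. In pelvic_2 the values were 8.04 against 249 CPM, beside 1.01%. The part of stray RNA in the endothelial level was not tested. Mural cells had 12.5 to 39.3 CPM and were 2.84-fold lower (-1.50 ± 0.267, edgeR adjusted p = 7e-05). Their median fell from 28.6 to 13.9 CPM once the share of neuron-only genes found in mural cells was subtracted. Glia passed at 0.78 ± 0.184 (edgeR adjusted p = 0.000815), a call lost within round 1 (0.55). In stellate glia *Ngfr* stood at 25.5% of its neuronal level, beside 17.2% for neuron-only genes, and it fell from 56.7 to 18.5 CPM once that share was subtracted. In the other libraries the subtracted glial level was 53.8 to 125 CPM. The part of such stray RNA in the glial level was not tested further.

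In Schwann cells *Ngfr* followed *Ntrk3*. It was 173 against 45.9 CPM in the stellate, 195 against 84.3 in the sphenopalatine, 169 against 76.9 in the coeliac and 172 against 40.8 in the lumbar library, and 75.9 against 156 CPM in pelvic_1. The Schwann levels of the 4 libraries outside the pelvis lay close together (169 to 195 CPM), and those of the other glia ran from 40.8 to 84.3 CPM. Schwann cells were 2.38-fold higher (log2 change 1.25 ± 0.298, edgeR adjusted p = 0.013). The call was lost without the stellate (1.05), sphenopalatine (1.23), coeliac (1.27) or lumbar library (1.00), and stood without pelvic_1 (1.65). It was also lost within round 1 (0.94), with at least 50 cells per sum (1.27), with no library term (1.03) and with neurons selected on log counts (1.17).

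Among neurons, *Ngfr* varied widely within a ganglion. Over clusters of at least 20 cells it ran from 39.2 to 677 CPM in the stellate, 9.35 to 295 in the lumbar, 12.3 to 180 in the coeliac and 21.4 to 358 in the sphenopalatine library. In the pelvic libraries the spread was narrower, from 254 to 670 and from 184 to 343 CPM. The noradrenergic P3 neurons had 538 and 343 CPM, which exceeded the noradrenergic neurons of each other ganglion of the same round by 2.46-fold to 2.65-fold. Transmitter type gave no common direction. Cholinergic neurons were higher in the stellate (440 against 215 CPM) and lumbar libraries (223 against 139), and lower in pelvic_1 (403 against 538) and pelvic_2 (237 against 343). The stellate cholinergic value rested on a cluster of 29 cells at 677 CPM, and the other 31 cells lay near the noradrenergic level. In the lumbar library the cluster with the most *Ngfr* (295 CPM) was noradrenergic by the fixed markers. The pooled difference was -0.18 ± 0.268 (log2, edgeR adjusted p = 0.731). Without both pelvic libraries, an alternative chosen after seeing the data, noradrenergic neurons were lower by 0.79 on the log2 scale and the difference was called.

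*Sort1*, the sortilin gene (chr3:108284082-108361511, GRCm38, plus strand), was present in all classes within a narrow range. Glia had 29.1 CPM in the stellate, 40.2 in pelvic_1, 43.4 in the sphenopalatine, 63.0 in the lumbar, 64.1 in pelvic_2 and 66.1 in the coeliac library. They were 1.99-fold above the other classes (log2 change 0.99 ± 0.178, edgeR adjusted p = 3.67e-05). By median the order was glia (53.2 CPM), mural cells (34.0), neurons (21.8), endothelial cells (17.9) and fibroblasts (15.8), and all neighbours overlapped in range. Fibroblasts were lower (-0.75 ± 0.203, edgeR adjusted p = 0.00292), and so were endothelial cells (-0.71 ± 0.221, edgeR adjusted p = 0.00711), a call lost without both pelvic libraries (-0.48), an alternative chosen after seeing the data. Neurons as a whole stood at -0.03 ± 0.188 (edgeR adjusted p = 0.9).

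That neuronal value covered a split between neuron types. *Sort1* was 14.4 CPM in lumbar, 14.6 in stellate and 14.9 in coeliac neurons, and 28.7 in pelvic_2, 30.6 in sphenopalatine and 42.3 in pelvic_1 neurons. The 3 sympathetic libraries were thus almost level, and the parasympathetic and pelvic libraries lay above them. Cholinergic neurons had more than noradrenergic neurons in each of the 4 libraries with both, at 23.3 against 14.3 CPM in the stellate, 23.2 against 13.9 in the lumbar, 46.7 against 19.8 in pelvic_1 and 29.9 against 18.7 in pelvic_2. Noradrenergic neurons were 1.79-fold lower (log2 change -0.84 ± 0.141, edgeR adjusted p = 0.0277). The call was lost without the stellate library (-0.92), pelvic_1 (-0.71), pelvic_2 (-0.87) or both pelvic libraries (-0.65, chosen after seeing the data). It was also lost within round 1 (-0.95) and round 2 (-0.75), with at least 50 cells per sum (-0.95), with no library term (-0.92) and with neurons selected on log counts (-0.64). The direction was kept each time. Among pelvic neurons P2 and P4 had the most *Sort1* (60.1 and 56.0 CPM in pelvic_1, 35.5 and 39.0 in pelvic_2) and P3 the least (19.8 and 18.7 CPM).

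Between ganglia of 1 round, neurons were compared by fold for genes with at least 10 CPM in either library. Over all neurons the 3 ligand genes were under that minimum in every pair, so only receptor genes entered there. Of 4 receptor genes, 3 were past it for pelvic_1 over stellate (*Ntrk2* 6.39-fold, *Ntrk3* 20.0-fold, *Sort1* 2.90-fold), where 9.86% of all genes were (6.24% higher, 3.62% lower). Another 3 were past it for pelvic_1 over sphenopalatine (*Ntrk2* 5.21-fold, *Ntrk3* 16.5-fold, *Ngfr* 3.40-fold), where 7.41% of all genes were (3.78% higher, 3.64% lower). For pelvic_2, *Ntrk2* and *Ntrk3* were past it over coeliac (17.2-fold and 36.1-fold, with 10.3% of all genes, 5.44% higher and 4.87% lower) and over lumbar neurons (8.57-fold and 25.8-fold, with 9.24% of all genes, 5.46% higher and 3.78% lower). *Sort1* was 2.10-fold higher in sphenopalatine than in stellate neurons, with 10.6% of all genes past the fold (6.47% higher, 4.17% lower). Among cholinergic neurons alone it was 1.27-fold, while *Ntrk2* (0.201-fold), *Ngfr* (0.296-fold) and *Bdnf* (0.182-fold) were lower in the sphenopalatine library. *Bdnf* passed the minimum there, at 14.6 CPM in the stellate library, and 9.24% of all genes were past the fold. The stellate side held 60 cells, and its *Ntrk2* rested mostly on 31 of them and its high *Ngfr* on the other 29. Coeliac and lumbar neurons differed by under 2-fold in the 2 receptor genes above the minimum of 10 CPM (*Ngfr* and *Sort1*), with 2.74% of all genes past it (1.47% higher, 1.27% lower). Each of these sets 1 library against 1 library, with no replicate check. These folds depended on which neurons were compared. Among noradrenergic neurons, pelvic *Ntrk2* was 2.12-fold the stellate, 5.52-fold the coeliac and 9.75-fold the lumbar level. Among cholinergic neurons it was 6.08-fold the sphenopalatine, 1.22-fold the stellate and 0.688-fold the lumbar level. *Sort1* in pelvic_1 was 1.39-fold the stellate level among noradrenergic and 2.01-fold among cholinergic neurons.

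Turning to the ligands, *Bdnf* (chr2:109674700-109727007, GRCm38, plus strand) was low in neurons and, per UMI, highest in mural cells. Mural cells had 10.3 CPM in pelvic_1, 16.4 in the sphenopalatine, 17.2 in pelvic_2, 20.0 in the coeliac, 20.7 in the stellate and 45.1 in the lumbar library, the last from 11 UMIs in 27 cells [22.5, 80.8]. Neurons had 2.51 CPM in the sphenopalatine and 7.23 to 8.94 CPM in the other 5 libraries. The mural sums lay above the neuronal sums without overlap. Mural cells were 5.72-fold above the other classes (log2 change 2.52 ± 0.375, edgeR adjusted p = 7.13e-06), and neurons 2.04-fold above (1.03 ± 0.285, edgeR adjusted p = 0.00204). The neuronal call was lost within round 2 (0.89) and without both pelvic libraries (0.88), the latter an alternative chosen after seeing the data.

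Glia (2.01 to 7.98 CPM) and fibroblasts (0.186 to 3.80 CPM) had less *Bdnf*, and endothelial cells had 0 to 2.79 CPM (log2 change -2.15 ± 0.478, edgeR adjusted p = 0.000412). By median the order was mural cells (18.6 CPM), neurons (8.00), glia (3.67), fibroblasts (2.60) and endothelial cells (1.24). Neurons and glia overlapped, and neurons exceeded glia by 2.12-fold (1.08 ± 0.357, edgeR adjusted p = 0.00841), a call lost without the stellate library (0.76) and within round 2 (0.7). The lower value of fibroblasts (-1.07 ± 0.364, edgeR adjusted p = 0.0147) lost its call without the stellate (-0.95), pelvic_1 (-1.0) or coeliac library (-0.75). It was also lost within round 1 (-0.65) and without both pelvic libraries (-1.02), the latter chosen after seeing the data. Neurons, the class with the most UMIs in all, held 83.6% of the *Bdnf* UMIs of the named classes (2006), and mural cells 3.04% (73).

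Neuronal *Bdnf* was spread over many clusters, with 1 cluster per ganglion above the rest in CPM, which held 11.2% (lumbar) to 31.9% (pelvic_1) of the neuronal UMIs. In the stellate ganglion a cluster of 175 cells led by *Sytl4*, *Cbln2* and *Tlx3* had 74.1 CPM [62.8, 86.8] against 7.08 CPM in the remaining neurons, and its 6.93% of the neurons held 23.0% of their *Bdnf* UMIs. In the lumbar ganglion a cluster of 44 cells led by *Cbln2*, *Sytl4* and *Ghrh* had 58.0 CPM [44.4, 74.3] against 7.19 CPM, with 5.12% of the neurons and 11.2% of the UMIs. In the coeliac ganglion a cluster of 42 cells led by *Sytl4* and *Tlx3* had 17.6 CPM [10.8, 27.2] against 7.04 CPM, with 21.8% of the neurons and 20.4% of the UMIs. Per cell it thus held no more *Bdnf* than the remaining coeliac neurons. In the stellate and lumbar clusters too the excess was smaller per cell than in CPM, since their cells held fewer UMIs in all. These 3 sympathetic clusters shared leading genes, and each had the lowest *Ngfr* of its ganglion, with 39.2, 9.35 and 12.3 CPM. The sphenopalatine library went the other way. There the cluster with the highest *Bdnf* (85 cells, 10.5 CPM against 1.89 in the remaining neurons) also had the highest *Ngfr*, 358 CPM. In the pelvic ganglion the clusters with most *Bdnf* were P1 neurons, with 27.7 CPM in pelvic_1 and 22.2 CPM in pelvic_2. P4 neurons, which had the most *Ntrk2*, held 0 UMIs of *Bdnf* in either library, where 3 UMIs would have been 1.302 CPM in pelvic_1 and 1.272 CPM in pelvic_2. Transmitter type as such made no difference that passed the test (-0.30 ± 0.221, edgeR adjusted p = 0.474).

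**Figure D4:**
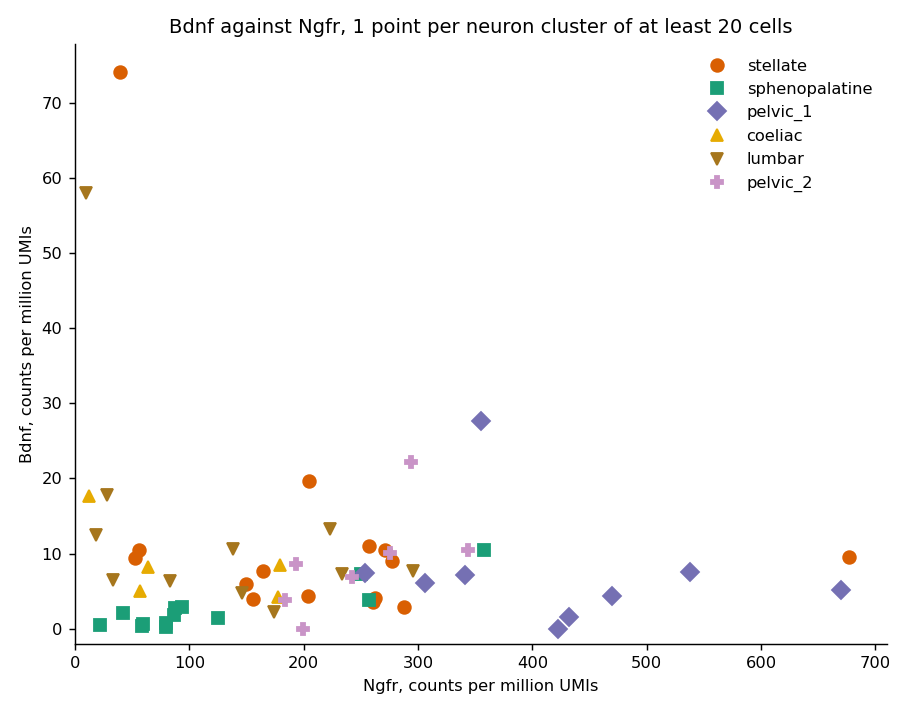
*Bdnf* against *Ngfr* (both in CPM, linear axes), 1 point per neuron cluster of at least 20 cells, with the symbol showing the library. The 3 points of the *Sytl4* clusters lie at the left edge with *Ngfr* of 9.35 to 39.2 CPM, and the stellate one is the highest at 74.1 CPM of *Bdnf*. The sphenopalatine cluster with the highest *Bdnf* (10.5 CPM) has *Ngfr* of 358 CPM.

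*Ntf3*, the NT-3 gene (chr6:126101412-126166910, GRCm38, minus strand), was rare, with 263 UMIs in all cells, and lay mainly in mural cells. Mural cells had 63.0 CPM [51.1, 76.8] in pelvic_1, 38.1 [27.5, 51.5] in pelvic_2, 32.8 [14.2, 64.7] in the lumbar, 18.2 [8.75, 33.6] in the sphenopalatine and 5.01 [0.606, 18.1] in the coeliac library. In the stellate library the 114 mural cells held 0 UMIs, where 3 UMIs would have been 6.21 CPM. Mural cells were 71.8-fold above the other classes (log2 change 6.17 ± 0.433, edgeR adjusted p = 1.88e-11), the largest difference of any member between classes, and the log2 value was 5.85 without both pelvic libraries, an alternative chosen after seeing the data. They held 160 UMIs, or 66.1% of those in the named classes. A UMI was found in 22.0% (Wilson 95% interval 17.5 to 27.4) and 22.1% (14.3 to 32.5) of pelvic mural cells and in 0.855% and 0% of pelvic macrophages (upper bounds 4.68% and 7.41%), at median depths of 5228 and 12842 against 7577 and 17369 UMIs.

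Within the mural class *Ntf3* lay mainly in smooth muscle. Whether this smooth muscle came from vessels or from nearby organs was not tested. In 3 libraries the mural cells split into smooth muscle, led by contractile genes, and pericytes, the mural cells of capillaries. Smooth muscle had 123 CPM [100.0, 150.4] in pelvic_1 (97 UMIs), 62.4 [44.6, 84.9] in pelvic_2 (40 UMIs) and 69.2 [31.7, 132] in the sphenopalatine library (9 UMIs in 19 cells). Pericytes had 1.65 [0.0418, 9.20], 4.34 [0.526, 15.7] and 2.39 CPM [0.0605, 13.3], from 1 or 2 UMIs each. The intervals did not overlap in any of the 3 libraries. Altogether 146 of the 160 mural UMIs lay in these 184 smooth muscle cells, of which 44.0% held a UMI. No smooth muscle cluster was named in the stellate, coeliac and lumbar libraries, so that the lower mural level of 2 of them and the makeup of the class cannot be told apart.

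*Ntrk3*, which encodes the receptor of NT-3, was also higher in smooth muscle than in pericytes, at 139 against 11.6 CPM in pelvic_1, 112 against 52.1 in pelvic_2 and 15.4 against 2.39 in the sphenopalatine library. *Ntrk2* was likewise higher there, at 153 against 71.0, 215 against 146 and 223 against 146 CPM. *Ngfr* ran the other way, with 6.36 against 71.0 CPM in pelvic_1, 12.5 against 41.2 in pelvic_2 and 30.8 against 40.6 in the sphenopalatine library. No test was made of these 3 pairs. The sphenopalatine values come from 19 smooth muscle cells (129962 UMIs) and 74 pericytes (418167 UMIs). Both *Ntrk3* levels there, and *Ngfr* in smooth muscle, thus rest on a few UMIs at most.

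**Figure D5:**
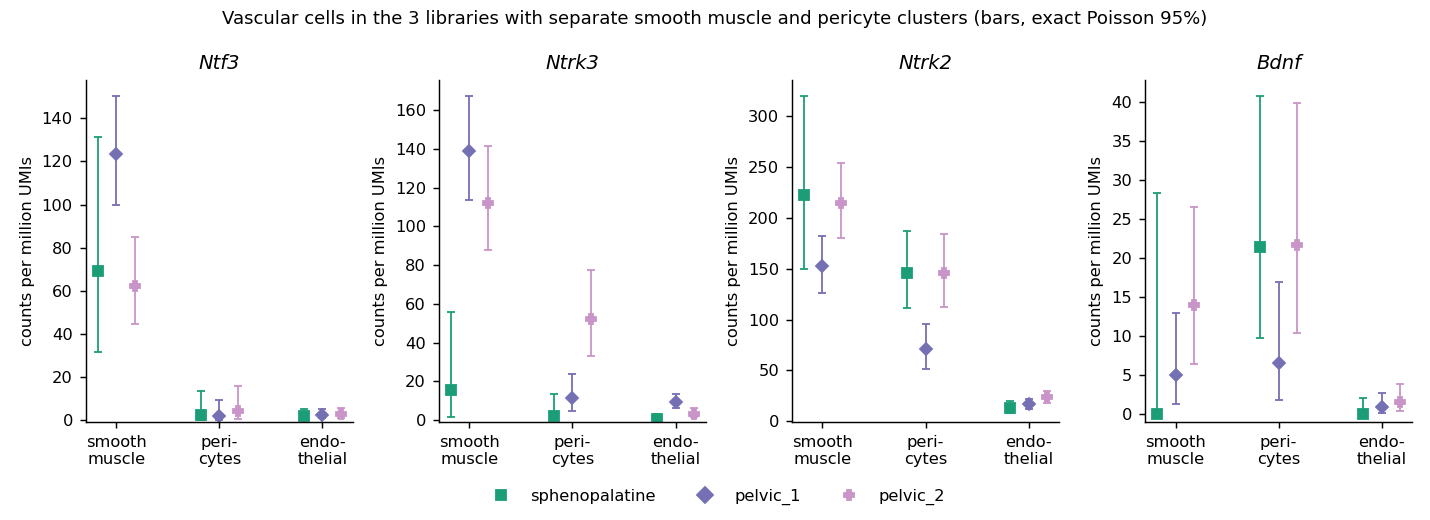
Levels in smooth muscle, pericytes and endothelial cells (CPM, linear axes) of the 3 libraries in which the mural cells were split, with exact Poisson 95% intervals. *Ntf3* is between 62.4 and 123 CPM in smooth muscle and below 5 CPM in pericytes and endothelial cells.

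Other classes held *Ntf3* at traces. Neurons had 35 UMIs in all 6 libraries together, 23 of them pelvic, and glia 3 UMIs. Neurons were 6.27-fold lower than the mean of the other classes (log2 change -2.65 ± 0.615, edgeR adjusted p = 0.000373, lost within round 2 at -2.32) and glia 19.0-fold lower (-4.25 ± 0.747, edgeR adjusted p = 2.9e-05). Endothelial cells had 0 to 2.68 CPM from 24 UMIs and passed the test at 1.60 ± 0.565 (edgeR adjusted p = 0.0162). The call was lost without the lumbar library (1.26), within round 1 (1.0), with at least 50 cells per sum (1.13) and with no library term (1.59). Endothelial *Ntf3* was 0.0405-fold, 0.0703-fold and 0.0733-fold the mural level in pelvic_1, pelvic_2 and the lumbar library. Mural marker genes stood there in endothelial cells at 12.5%, 17.1% and 8.34% of their mural level. In the sphenopalatine and coeliac libraries *Ntf3* was 0.093-fold and 0.335-fold, beside 4.9% and 5.83%. The part of stray mural RNA was not tested. By median the order was mural cells (25.5 CPM), endothelial cells (2.05), fibroblasts (0.284), neurons (0.0708) and glia (0), with neighbours overlapping in range.

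*Ntf5*, the gene of NT-4/5 (chr7:45413695-45417179, GRCm38, plus strand), had 196 UMIs in all cells. Of those in the named classes, 104 were in neurons (75.9%), 30 in fibroblasts and 0 in mural cells. Neurons were also the class with the most UMIs in all. Pooled over libraries, fibroblasts had 0.776 CPM and neurons 0.36 CPM, while the medians over libraries were 0.345 and 0.3675 CPM. The neuronal level was 0.164 to 0.424 CPM in the 6 libraries. The neuron cluster with the highest level held 16.7% of the neuronal UMIs in pelvic_1, 17.2% in the sphenopalatine library and more in the others. In the stellate ganglion 12 of 23 neuronal UMIs were in a cholinergic cluster of 29 cells led by *Adgrg6*, *Pnoc* and *Slc5a7* (9.52 CPM [4.92, 16.6] against 0.151 in the other neurons). That cluster also had the highest *Ngfr* of the ganglion, 677 CPM. In the lumbar ganglion 12 of 26 were in a cluster of 67 cells led by *Cntn5* and *Adgrg6* (1.62 CPM [0.838, 2.83] against 0.226), also the one with the highest *Ngfr* (295 CPM). Both clusters carried *Slc5a7*, the choline transporter gene, among their leading genes, although the lumbar one was noradrenergic by the fixed markers. In the coeliac, sphenopalatine and both pelvic libraries the cluster with the highest *Ntf5* was not the one with the highest *Ngfr*.

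Genes that work beside these receptors were counted in 3 lists, to be read against the shares of all genes called, which were 44.2% higher and 36.1% lower in neurons, 28.8% and 28.0% in glia, 28.8% and 27.9% in fibroblasts, 31.5% and 32.1% in endothelial cells, and 16.5% and 23.0% in mural cells. Of 14 listed symbols of p75NTR partners, among which *Ngfrap1* is an older symbol of *Bex3*, 12 were tested, and in neurons 7 were higher and 5 lower than in the other classes (median log2 change 0.44, against 0.12 over all genes). The adaptor gene *Bex3* stood at 689 CPM in neurons by median and was 4.05-fold higher (log2 change 2.02 ± 0.0829, edgeR adjusted p = 4.85e-17). *Lingo1*, whose product joins p75NTR in the Nogo receptor complex, stood at 67.3 CPM and was 7.98-fold higher (3.00 ± 0.149, edgeR adjusted p = 1.6e-15). In glia 4 partners were higher and 4 lower (median -0.04, against -0.02). There the sortilin relative *Sorcs1* stood at 88.1 CPM and was 28.4-fold higher (4.83 ± 0.236, edgeR adjusted p = 6.08e-15). Its relative *Sorcs2* was 10.7-fold higher in fibroblasts (3.42 ± 0.221, edgeR adjusted p = 1.36e-12), where 4 partners were higher and 3 lower (median -0.14, against -0.02). In endothelial cells 3 were higher and 7 lower (median -0.75, against -0.04), and in mural cells 1 was higher and 4 lower (median -0.31, against -0.16).

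Of 19 adaptors and effectors of Trk receptors, all were tested, and 12 were higher and 3 lower in neurons (median log2 change 0.79, against 0.12 over all genes). *Kidins220*, which encodes a scaffold of Trk signalling, was 3.66-fold higher in neurons (1.87 ± 0.0893, edgeR adjusted p = 7.38e-16). *Islr2*, whose membrane protein is known to bind Trk receptors, was 19.9-fold higher (4.31 ± 0.219, edgeR adjusted p = 2.43e-15). In glia 4 were higher and 9 lower (median -0.38, against -0.02), with *Shc4*, a member of the Shc adaptor family, 15.0-fold higher (3.91 ± 0.238, edgeR adjusted p = 4.51e-13). In fibroblasts 6 were higher and 5 lower (median -0.000613, against -0.02), and in mural cells 2 and 10 (median -0.46, against -0.16). In endothelial cells 5 were higher and 3 lower (median -0.01, against -0.04), among them *Plcg1*, the gene of phospholipase C gamma 1, which was 4.15-fold higher (2.05 ± 0.0876, edgeR adjusted p = 2.23e-16).

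Of 9 genes of proneurotrophin cleavage, 5 were tested, and none was higher and 4 lower in neurons (median log2 change -3.02, against 0.12 over all genes). The convertase gene *Pcsk5* stood at 0.835 CPM in neurons and 117 CPM in glia by median (glia against the other classes 3.38 ± 0.192, edgeR adjusted p = 1.18e-13). *Plat*, the gene of tissue plasminogen activator, stood at 127 CPM in fibroblasts (2.78 ± 0.239, edgeR adjusted p = 3.45e-10), where 3 were higher and 0 lower (median 0.92, against -0.02). *Furin* stood at 63.4 CPM in endothelial cells (1.24 ± 0.131, edgeR adjusted p = 1.3e-08), where 4 were higher and 0 lower (median 1.24, against -0.04). In glia 1 was higher and 3 lower (median -0.94, against -0.02), and in mural cells 2 and 0 (median -0.27, against -0.16).

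Inside a class, noradrenergic and cholinergic neurons differed in 1 of 12 partners, 1 of 18 Trk adaptors and 0 of 4 cleavage genes tested (edgeR), where 6.12% of all genes were called. Schwann cells and other glia differed in 2 of 9, 1 of 17 and 2 of 4, where 13.1% were called. The sorting receptor gene *Sorl1* was 7.57-fold lower in noradrenergic neurons (median 15.3 against 81.0 CPM, log2 change -2.92 ± 0.262, edgeR adjusted p = 0.00521). *Gab1*, an adaptor gene, was lower as well (-1.39 ± 0.214, edgeR adjusted p = 0.0228). Calls on single pathway genes were not followed through the alternative settings. Between these neuron types the 829 genes called became 13 within round 1 and 0 within round 2. In myelinating Schwann cells *Plat* was 2.90-fold higher than in the other glia (1.54 ± 0.270, edgeR adjusted p = 0.0018). *Pcsk5* was 2.21-fold lower there (-1.14 ± 0.265, edgeR adjusted p = 0.0112) and *Sorcs1* 1.89-fold lower (-0.92 ± 0.173, edgeR adjusted p = 0.00292).

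As a description, the genes most like each member were ranked by Spearman correlation of their CPM over the 30 sums of 5 classes and 6 libraries, among 11805 genes. The sums of 1 library share its suspension and chemistry, so they are not independent, and no p is given. *Ntrk2* was most like *Fam129a* (rho 0.908), *Oat* (0.884) and *Matn2* (0.878). *Ntrk3* was most like *Wnt5a* (0.863), *Gm9885* (0.858), which overlaps it on the opposite strand, and *Lrrc75a* (0.802). *Ngfr* was most like *Gstm5* (0.915), *Serf1* (0.903) and *Pdzd4* (0.903). For *Sort1* these were *Gm17251* (0.814), *Id4* (0.797) and its relative *Sorcs1* (0.788). For *Bdnf* they were *Cog7* (0.865), *Trpc1* (0.837) and *Thoc7* (0.824), and for *Ntf3* they were *Pip5k1b* (0.814), the elastin gene *Eln* (0.794) and *Mad2l1bp* (0.767). *Ntf5* was below the minimum for this ranking. Among the members themselves the correlations were lower, the highest being *Ntrk3* with *Ngfr* (0.516).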

How the data were processed

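The authors deposited UMI counts per gene and droplet for 6 libraries of the 10x Chromium 3′ assay, made with Cell Ranger 6.0.1 on mm10 (GRCm38) and filtered for cell-containing droplets, with a different kit version in each round. By the limits in the study's methods (1500 to 11000 detected genes, mitochondrial share below 15%), 21442 of 30777 droplets were kept. The neuron call used the study's marker rule on sctransform 0.4.2 values (mean over 3), and cells with both neuronal and glial markers were left out as doublets. Each library was clustered (Leiden method of igraph 0.11.9, Python 3.11.15), with the 7 genes and the pathway lists left out of clustering and naming. A class was named where at least 50% of its markers were carried. Counts were summed per library and class (at least 20 cells) and tested with edgeR 4.0.16 (R 4.3.3, TMM, filterByExpr, quasi-likelihood, Benjamini-Hochberg, called under 0.05). Replicates are libraries. Nothing says how many pups each holds. The p-values weigh a mean class difference against the spread between libraries that the class and library terms leave. That spread mixes ganglion, round and technical differences, as only the pelvic ganglion was repeated. On simulated counts the 5-class fit recovered 78.4% of 2-fold and 99% of 4-fold changes, the noradrenergic against cholinergic fit 12.8% and 88.7%, and the Schwann fit 16.8% and 88.2%. The simulation used a dispersion of 0.1 for every gene and no difference between ganglia. Genes that vary more would be recovered less often, such as *Ntrk2* and *Ntrk3* between neuron types (SE 0.648 and 0.834). Shares with Wilson intervals and thinning to 4000 (neurons) or 2000 UMIs (other cells) were computed, and the level of neuron-only genes was taken as the measure of stray neuronal RNA. Gene positions were read from GENCODE M21. The 7 genes are named by symbol. Of the pathway lists up to 4 genes per list and comparison, those with the highest level, could be named, and of the genes most like each member 3. Leading genes of a cluster are named where it is described, chosen after their values were seen. The members and lists were chosen with earlier results of these data known. Other normalizations, filters, cell selections and left-out libraries were tried, and another 2100 cells marked as likely doublets were removed in 1 alternative. Results on some genes of the family are not reported here.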

Additional observations from a re-analysis of the deposited data

Results flagged for a closer look

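In 28 sets of 6 libraries, the spread of each member in each class was examined for a single library far from the others. Chance marks about 1 in 20 such sets. *Bdnf* in neurons was lowest in the sphenopalatine library (2.51 CPM, next 7.23 CPM), with a gap of 0.734 of the whole range. *Bdnf* in mural cells was highest in the lumbar library (45.1 CPM, next 20.7 CPM, gap 0.701), from 11 UMIs. *Ntrk3* in endothelial cells was highest in pelvic_1 (9.56 CPM, next 3.44 CPM, gap 0.64), at 5.25% of the neuronal level of that library, where neuron-only genes stood at 2.38%. It was also 0.117-fold the mural level of that library (81.6 CPM), where mural marker genes stood in endothelial cells at 12.5% of theirs. The part of stray neuronal or mural RNA was not tested.

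The log2 ratio of myelinating Schwann cells over other glia had the opposite sign in pelvic_1 from the 4 other libraries for 3 genes. For *Ntrk3* it was -0.32 against 1.4 to 3.78, for *Ngfr* -1.04 against 1.14 to 2.08, and for *Sort1* -0.09 against 0.04 to 0.37. The pelvic_1 value rests on 72 Schwann cells, with 10 UMIs of *Ntrk3*, and the difference between ganglia was not tested.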

How the results depend on the processing

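Of 706 recomputed member tests, 636 kept direction and call, 44 lost the call, 15 gained it and 11 changed sign. Sign changes concerned *Sort1* in neurons against the other classes (0.01 with at least 50 cells per sum, 0.35 in round 1, -0.26 to 0.21 when leaving out 1 library), *Ntrk3* in glia (-0.26 with no library term, -0.33 in round 1, -0.2 to 0.55 when leaving out 1 library), *Bdnf* in glia (0.02 in round 2), *Ngfr* between noradrenergic and cholinergic neurons (0.32 with neurons selected on log counts, -0.4 to 0.06 when leaving out 1 library) and *Ntrk3* in neurons against glia (-0.38 without both pelvic libraries, an alternative chosen after seeing the data). None of these tests was called in the reported fit. Of 80 recomputed folds between ganglia and counts of genes past the fold, 1 fold past the 2-fold line changed direction. This was *Ntrk2* of pelvic_2 over lumbar neurons (8.57 reported, 0.688 among cholinergic neurons). Changes of direction in folds under that line were not counted, such as *Ngfr* of pelvic_1 over stellate neurons (1.91 reported, 0.917 among cholinergic neurons). Another 18 moved, either a gene across the 2-fold line or a count of genes to another size. With TMM-scaled sums *Ngfr* and *Sort1* of pelvic_2 over coeliac neurons passed the line (1.93 and 1.92 reported, 2.13 each). The causes were not tested. Genes called in mural cells (5647) numbered 3283 in round 2 and 3587 without both pelvic libraries, where fewer libraries entered, and 4460 to 5119 when leaving out 1. Genes called between noradrenergic and cholinergic neurons (829) numbered 1803 by DESeq2, 1357 with no filter, 13 with at least 50 cells per sum, 282 with no library term, 296 with neurons selected on log counts, 13 in round 1, 0 in round 2 (edgeR, 1344 at an unadjusted p under 0.05), 1374 without both pelvic libraries and 131 to 637 when leaving out 1, the lowest without pelvic_1. Genes called in Schwann cells (1498) numbered 385 with no library term, 791 with neurons selected on log counts, 718 in round 1, and 932 to 1702 when leaving out 1 library, the lowest without the lumbar library. Of 245 recomputed levels 243 moved by less than the spread between libraries. The share of cells with a UMI moved with thinning or a minimum of 2 UMIs in 36 of 70 cases. No paired analysis was possible because the ganglia share only replicate number 1, which names a library and pairs nothing between ganglia. Classes of 1 library were compared with library as a term, so those tests were already within libraries. Depth limits *Ntf3* and *Ntf5* most, with under 300 UMIs each.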
